A study of Mus musculus with 15 samples.

Results

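Primary mouse hepatocytes were compared with mouse mesenchymal stromal cells (MSC) on 3 arrays each, which are 6 of the 15 arrays of a study on hepatogenic differentiation. The other 9 arrays hold cells labelled HD28, which were differentiated from MSC, dHD28 and MLC, and served here only to choose probe sets and in an alternative fit. The 3 arrays labelled MSC hold RNA of cells kept in a low glucose DMEM maintenance medium with 10% serum. The 3 arrays labelled Hepatocyte hold RNA of primary hepatocytes kept in a hepatocyte maintenance medium and DMEM/F12 with 10% serum, so medium and cell type cannot be told apart. Both groups went through the same Trizol extraction and the same labelling of 5 µg of total RNA. Strain, age and sex of the mice, the tissue the MSC came from and the time the hepatocytes spent in culture are not given in the sources used here. Arrays were placed in their group by the sample title, and all 18193 genes with a named probe set were compared, with the probe set of the highest mean over the 15 arrays standing for each gene.

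Hepatocytes make most of the proteins of blood plasma, store and release glucose, burn and export fat, turn ammonia into urea and oxidise foreign compounds with cytochromes P450. These tasks are held in place by a set of liver-enriched transcription factors that also act on each other. MSC are fibroblast-like cells that grow on plastic, divide in culture, secrete collagen-rich matrix and growth factors and can form bone, cartilage and fat cells.

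Values are log2 expression values, so a difference of 1 is a 2-fold difference in signal. A gene was called changed when its adjusted p in limma (Benjamini-Hochberg over all 18193 genes) was under 0.05 and its fold was at least 2, and errors of log2 changes are standard errors (SE) of that model with n = 3 arrays a group. The labels do not say that the 3 arrays of a group came from separate animals or cultures, so p-values measure only the spread between these samples. The array gives no calls of presence here, and a fold against a group mean under 4.27, the lower quartile of all group means, is approximate, because signals there lie near the low end of the scale.

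In hepatocytes 2068 genes were higher and 3248 were lower than in MSC. The 5316 changed genes are 29.2% of those tested, with 11.4% higher and 17.9% lower. Fewer genes were higher, but they stood further apart: the median fold was 4.77 among the higher genes and 3.57 among the lower ones. At a fold of at least 64 there were 266 higher genes against 45 lower, and at a fold of at least 256 there were 107 against 5. With the probe set used for each gene, Fga, the fibrinogen alpha chain, had the largest difference upwards (log2 change 10.68 ± 0.24 (SE), adjusted p = 2.15e-07). Sfrp2, a secreted Wnt modulator, had the largest downwards (log2 change -9.53 ± 0.27 (SE), adjusted p = 5.50e-07). Further probe sets of Ttr and Fabp1 had larger changes upwards (11.24 and 10.82). The share of higher genes among the changed ones was 38.9% on the deposited scale and 54.4% (2938 higher, 2460 lower) when each array was centred on 13 housekeeping genes, a step that moved the median log2 change of all genes from 0.0359 to 0.365. On the deposited scale 3 of these 13 genes were themselves called higher and 4 lower.

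Some of these differences ran from signal near the low end of the scale to bright signal. In MSC 262 genes had a mean under 4.27 and in hepatocytes a mean over 8, the upper quartile, while 89 genes had the reverse pattern. Of the higher genes 643 (31.1%) had an MSC mean under 4.27, and of the lower genes 384 (11.8%) had a hepatocyte mean under it. The values of the arrays of the 2 groups did not overlap for 2067 of the 2068 higher and 3242 of the 3248 lower genes, and for 9570 of all genes (52.6%).

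**Figure D1:**
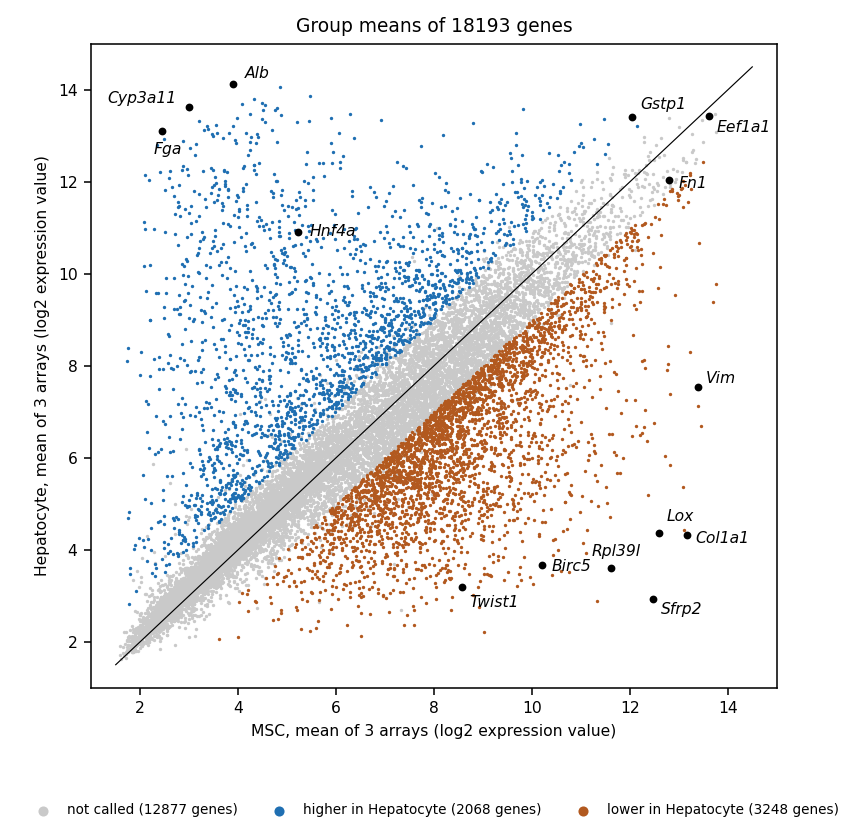
Mean log2 expression value of each of 18193 genes over the 3 MSC arrays (horizontal) and the 3 Hepatocyte arrays (vertical); the line marks equal values, colours mark the 2068 genes called higher and the 3248 called lower, and 14 genes are labelled. The cloud of higher genes reaches farther from the line, to Fga, Cyp3a11 and Alb at the upper left, than that of lower genes, which ends at Sfrp2 and Col1a1 at the lower right.

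The arrays themselves differed in 3 ways that bear on what follows. The poly-A spike-in controls, RNA added during labelling, were high on replicate 1 of both groups (7.37 in MSC, 7.61 in hepatocytes) and low on replicates 2 and 3 (4.63 to 5.14), and every one of the 5316 changed genes had the same sign within the high class (1 array against 1) and within the low class (2 against 2), as it must where the arrays of the groups do not overlap. With this class as a block 5555 genes were changed, and among the low class alone 5437. The difference between the 3' and 5' actin control probe sets, a measure of RNA integrity, was 0.126 to 0.443 in MSC and 0.665 to 1.24 in hepatocytes. The same difference for Gapdh was -0.007, 0.146 and 0.344 in MSC and 0.0149, 0.583 and 0.501 in hepatocytes. By actin the groups were apart, and by Gapdh hepatocyte replicate 1 lay within the MSC range. The part of RNA quality in the results was not tested. Replicate 1 stood apart from replicates 2 and 3 in each group, with SDs of the differences between arrays of 0.616 to 0.675 against 0.286 (MSC) and 0.438 (hepatocytes) for replicates 2 and 3.

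The label Hepatocyte was borne out by its markers. Alb (albumin) measured 3.92, 3.83 and 3.95 on the MSC arrays and 14.11, 14.10 and 14.15 on the Hepatocyte arrays, a 1193-fold difference (log2 change 10.22 ± 0.14 (SE), adjusted p = 9.77e-08). Apoa1, the main protein of HDL, measured 5.58, 5.38 and 5.48 in MSC and 13.81, 13.84 and 13.95 in hepatocytes, and Ttr, the thyroxine carrier transthyretin, 6.34, 6.16 and 6.33 in MSC and 13.47, 13.43 and 13.50 in hepatocytes. Further probe sets of Ttr had MSC means of 1.88, 2.93 and 3.69 and log2 changes of 11.24, 10.83 and 9.70. Asgr1, the asialoglycoprotein receptor, was 221-fold higher (7.79, adjusted p = 7.57e-07). All 10 hepatocyte markers listed for the check were higher, with arrays that did not overlap, as for 52.6% of all genes.

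Of the 10 MSC markers, 7 were lower in hepatocytes and 3, all surface markers, were not. Col1a1, the main chain of type I collagen, measured 12.83, 13.45 and 13.22 on the MSC arrays and 3.54, 4.91 and 4.52 on the Hepatocyte arrays, 460-fold lower in hepatocytes (log2 change -8.84 ± 0.37 (SE), adjusted p = 3.58e-06). Pdgfrb, the PDGF receptor of stromal cells, measured 11.25, 11.46 and 11.32 in MSC and 3.48, 5.32 and 6.06 in hepatocytes (-6.39, adjusted p = 2.11e-04), and Twist1, a mesenchymal transcription factor, 8.97, 8.45 and 8.27 in MSC and 3.66, 3.13 and 2.75 in hepatocytes (-5.38, adjusted p = 1.38e-05). Thy1 (CD90) and Nt5e (CD73), which are often used to define human MSC, had values of 5.91, 3.91 and 4.35 and of 6.11, 5.91 and 5.98 in MSC and did not pass the test (-0.09, adjusted p = 0.912 for Thy1 and 0.14, adjusted p = 0.544 for Nt5e). A further probe set of Nt5e was higher in hepatocytes (1.20, adjusted p = 0.037 over probe sets). Eng (CD105) was higher in hepatocytes (1.53, adjusted p = 0.00279). Eng is also a gene of endothelial cells, and 15 of 19 genes of liver endothelium were higher in the same samples. The part of endothelial cells in the Eng difference was not tested.

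Markers of some of the liver's other cells were higher in hepatocytes. Of 20 Kupffer cell and macrophage genes 17 were higher in hepatocytes, 0 were lower, and the median log2 change was 2.77. Of 19 genes of liver endothelium 15 were higher and 0 lower (median 2.03), and of 14 stellate cell genes 7 were higher and 1, Pdgfrb, lower. Vsig4, a complement receptor of Kupffer cells, measured 3.52, 3.86 and 4.16 on the MSC arrays and 7.86, 9.14 and 9.67 on the Hepatocyte arrays (5.04, adjusted p = 1.67e-04). Ptprc (CD45), carried by all white blood cells, measured 2.60, 2.49 and 2.65 in MSC and 4.91, 7.57 and 6.88 in hepatocytes (3.87, adjusted p = 0.0025). Clec4g, a lectin of sinusoidal endothelium, measured 4.78, 4.49 and 4.70 in MSC and 8.33, 9.95 and 10.57 in hepatocytes (4.96, adjusted p = 3.79e-04), and Stab2, a scavenger receptor of the same cells, 5.09, 4.44 and 5.09 in MSC and 6.96, 7.58 and 8.12 in hepatocytes (2.68, adjusted p = 7.52e-04). Lrat, which stores retinol in stellate cells, measured 2.48, 2.27 and 2.33 in MSC and 3.39, 7.97 and 7.04 in hepatocytes (3.78, adjusted p = 0.0282), and lost its call when any array other than hepatocyte replicate 1 was left out. Reln and Des were also set as defining stellate markers. Reln was higher (4.61), but Des was not called (0.25, adjusted p = 0.44). Des measured 5.69, 5.36 and 5.34 in MSC and 5.30, 5.87 and 5.96 in hepatocytes.

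Hepatocyte replicate 1 had less of these markers than replicates 2 and 3. The mean level of the Kupffer list was 6.0 on replicate 1 and 7.55 and 7.73 on replicates 2 and 3, against 4.16 to 4.30 in MSC. The endothelial list gave 5.88, 7.01 and 7.21 against 4.42 to 4.55, and the stellate list 5.27, 6.61 and 6.81 against 5.08 to 5.14. Within the high spike-in class the Kupffer list had a median log2 change of 1.39, and within the low class of 3.28. Lists of T and NK cells (0 of 12 higher), B cells (1 of 7, Jchain), neutrophils (1 of 8, S100a9), cholangiocytes (1 of 10, Anxa13) and platelets (1 of 5, Pf4) had 0 or 1 called member higher. The shares higher were 0%, 14.3%, 12.5%, 10% and 20%, against 11.4% of all genes. The medians of these lists were 0.40, 0.62, 0.32, 0.06 and 0.06, and all 12 T and NK genes were above 0 without passing the test. The cholangiocyte and platelet lists also had 1 member each called lower (10% and 20%, against 17.9% of all genes). The mean level of the T and NK list was 4.39, 4.79 and 4.72 on the Hepatocyte arrays against 4.2 to 4.29 in MSC, and that of the B cell list 5.29 to 5.57 against 4.58 to 4.85. Krt19 and Epcam, which define bile duct cells, were not higher (-1.57, adjusted p = 0.113 and -0.62, adjusted p = 0.0207). In bulk samples fewer cells of a type and less RNA per cell cannot be told apart. The part of other cells in the gene groups below was not tested. The mean level of the plasma protein list was 11.59, 11.64 and 11.82 on the Hepatocyte arrays, the same order of arrays within a narrower range.

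**Figure D2:**
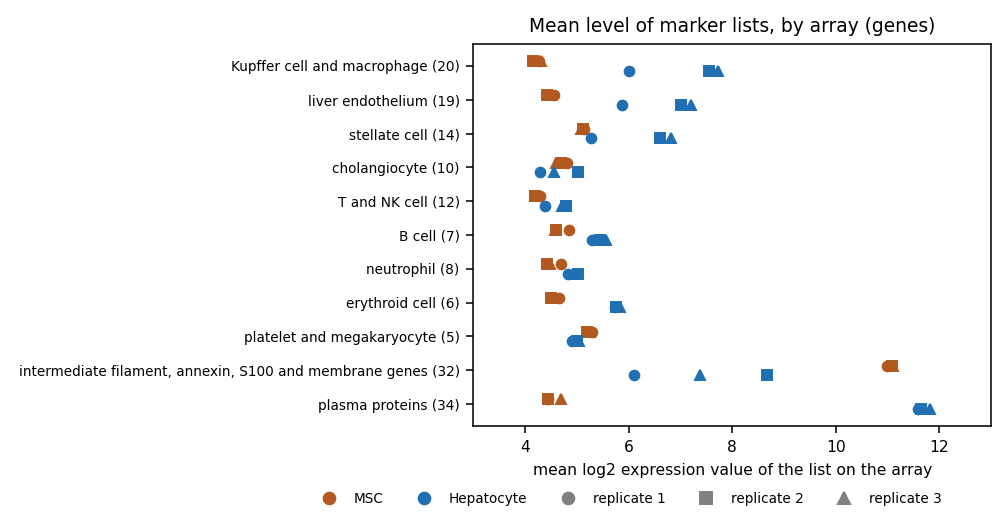
Mean log2 expression value, on each of the 6 arrays, of the markers of 9 other cell types and of 2 lists for comparison; orange marks MSC, blue marks Hepatocyte, and symbols mark the replicate. Kupffer, endothelial and stellate lists lie higher on Hepatocyte replicates 2 and 3 than on replicate 1, while the plasma proteins lie between 11.59 and 11.82 on all 3.

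Secreted liver proteins formed the group with the largest differences. Of 34 measured plasma protein genes 32 were higher in hepatocytes and 0 lower, with a median log2 change of 7.78 where that of all genes was 0.04. Of 17 genes of apolipoproteins and lipoprotein assembly 16 were higher (median 8.09), and of 19 coagulation genes 18 (median 7.37). Within the spike-in classes these 3 lists had medians of 7.90, 8.01 and 7.23 in the high class and 7.6, 8.13 and 7.44 in the low class.

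Fga measured 2.58, 2.41 and 2.31 on the MSC arrays and 13.60, 13 and 12.74 on the Hepatocyte arrays. Serpinc1 (antithrombin) measured 3.62, 3.25 and 3.24 in MSC and 12.80, 13.40 and 13.46 in hepatocytes, and Fgg and Fgb, the other fibrinogen chains, had log2 changes of 9.70 and 9.49. Mug1 and Pzp, protease-trapping proteins of the macroglobulin family, were 1388-fold and 1046-fold higher as fitted, from MSC means under 4.27. Apoc3, an inhibitor of lipoprotein lipase, measured 3.73, 3.57 and 3.34 in MSC and 13.40, 13.16 and 13.15 in hepatocytes (9.69, adjusted p = 9.77e-08), and Apoe, the ligand by which remnants are taken up, 4.29, 4.01 and 4.41 in MSC and 13.43, 13.52 and 13.45 in hepatocytes (9.23, adjusted p = 9.77e-08). F7, a vitamin K dependent clotting factor, had the smallest change among the called members of the coagulation list (5.06, adjusted p = 4.30e-05).

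Members of these lists that did not pass the test were bright in both cell types or varied among arrays. Serpinf1, the anti-angiogenic factor PEDF, measured 12.26, 12.49 and 12.68 in MSC and 12.20, 12.08 and 12.23 in hepatocytes and did not pass the test (adjusted p = 0.202). Pros1 (protein S) had a log2 change of 1.09, adjusted p = 0.115, and Pltp, the phospholipid transfer protein, of -1.02, adjusted p = 0.351, with hepatocyte values of 7.37, 9.93 and 10.65. Saa3, an acute phase protein, measured 5.76, 5.53 and 10.22 in MSC and 7.04, 9.95 and 8.95 in hepatocytes (adjusted p = 0.432), so its arrays overlapped. Fn1 (fibronectin), a matrix protein of fibroblasts that the liver also releases into plasma, measured 12.11, 13.14 and 13.13 in MSC and 12.12, 12.01 and 12 in hepatocytes and did not pass the test (adjusted p = 0.0872). Fn1 was named after its values were seen.

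Of 16 complement genes 13 were higher in hepatocytes (median 6.33). C9, a pore-forming component, and Mbl2, a mannose-binding lectin, had log2 changes of 8.98 and 8.96. C1ra, a protease of the classical pathway, measured 7.79, 9.70 and 9.58 in MSC and 10.69, 10.48 and 10.28 in hepatocytes and did not pass the test (adjusted p = 0.0547). Masp1, a protease of the lectin pathway, was called lower (-1.72, adjusted p = 0.00496), but its probe sets disagreed: 4 of 5 were lower, and the other had a log2 change of 5.83, which is the direction the gene takes when probe sets ending in x_at and s_at are left out.

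Promoter sequences of the most changed hepatocyte genes are given because the plasma protein genes moved together. The 250 bases before the RefSeq start (assembly GRCm38.p6) are printed 5′ to 3′ in lower case. Capitals mark matches, on either strand, to TATAAA (bound by the TATA-binding protein), CCAAT (bound by NF-Y), GTTAAT (the core bound by HNF1), CAAAGTCC (bound by HNF4), TGTTTAC (bound by FOXA factors), TTGCNNAA (bound by C/EBP factors) and TTTGAA (the CHR element of cell cycle genes), and matches of different motifs may overlap. Fga, Cyp3a11 and Fabp1 had the largest differences upwards with the probe sets used, and Alb is the defining hepatocyte gene.
Fga, chr3:83025903-83026152, plus strand: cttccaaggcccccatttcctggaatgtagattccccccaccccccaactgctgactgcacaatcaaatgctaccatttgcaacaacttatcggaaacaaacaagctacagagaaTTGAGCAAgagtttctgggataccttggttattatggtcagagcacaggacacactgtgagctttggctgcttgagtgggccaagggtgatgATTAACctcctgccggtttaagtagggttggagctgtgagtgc
Cyp3a11, chr5:145879855-145880104, minus strand: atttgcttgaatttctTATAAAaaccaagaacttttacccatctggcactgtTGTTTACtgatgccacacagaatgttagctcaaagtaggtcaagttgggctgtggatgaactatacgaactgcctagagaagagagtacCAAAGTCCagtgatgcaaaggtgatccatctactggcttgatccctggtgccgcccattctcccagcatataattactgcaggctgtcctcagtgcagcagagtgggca
Fabp1, chr6:71199629-71199878, plus strand: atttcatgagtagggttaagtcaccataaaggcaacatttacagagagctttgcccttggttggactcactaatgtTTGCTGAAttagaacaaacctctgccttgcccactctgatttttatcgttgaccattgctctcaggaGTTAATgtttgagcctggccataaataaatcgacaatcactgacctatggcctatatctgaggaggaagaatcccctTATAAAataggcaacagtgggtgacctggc
Alb, chr5:90460620-90460869, plus strand: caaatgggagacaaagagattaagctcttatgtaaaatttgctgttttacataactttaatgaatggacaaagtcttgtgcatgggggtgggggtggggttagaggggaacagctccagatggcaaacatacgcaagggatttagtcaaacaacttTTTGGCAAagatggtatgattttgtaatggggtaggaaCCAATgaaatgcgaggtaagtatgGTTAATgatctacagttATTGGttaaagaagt

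Fga and Alb each held an HNF1 core and a C/EBP site in the printed stretch, at 43 and 135 bases before the start in Fga and at 32 and 94 in Alb, counted to the first base of the match. Fabp1 held both as well and a TATA box at 30 bases before the start. Of the 7 marked motifs Cyp3a11 held TATAAA at 234 bases, TGTTTAC at 198 and CAAAGTCC at 109, and neither an HNF1 core nor a C/EBP site. In the window from 250 bases before to 50 after the start, GTTAAT was found in 9 of 29 plasma protein promoters (31%) and 5 of 17 coagulation promoters (29.4%), against 7.2% of all 27018 promoters in the RefSeq table. It was found in 1 of 14 apolipoprotein promoters (7.14%) and in 4% of 25 cytochrome P450 promoters. TTGCNNAA was found in 44.8% and 35.3% of the plasma protein and coagulation promoters and in 4.55% of 22 promoters of liver transcription factors, against 10.8% of all promoters. TATAAA was found in 44% of the cytochrome P450 promoters, 27.6% of the plasma protein, 14.8% of the amino acid breakdown, 10.5% of the fatty acid oxidation and 5.88% of the coagulation promoters, against 14.2% of all. Among the 14449 tested genes that had a promoter (79.4% of those tested), GTTAAT was found in 5.06%, TTGCNNAA in 9.05% and TATAAA in 9.86%. A match is a run of letters and not a measured binding site.

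The promoters of these lists also held few CpG dinucleotides. The ratio of observed to expected CpG had a median of 0.162 over the 29 plasma protein promoters and 0.174 over the 25 of cytochromes P450, against 0.388 over all promoters in the table. Fga had a ratio of 0.161, Cyp3a11 of 0.125, Fabp1 of 0.198 and Alb of 0.272. The liver transcription factors, also higher in hepatocytes, had a median of 0.583 over 22 promoters. Among all genes lower in hepatocytes 2610 of 3248 had a promoter in the table, and 76.8% of those had a ratio over 0.6, against 57% of the tested genes that had a promoter and 36.4% of all promoters in the table. The tested genes had a median ratio of 0.674, above that of the table, which lists many further genes. For them too the cover, 79.4%, is just under 80%. For all higher genes the same check is void, because 1647 of 2068 (79.6%) had a promoter, which is under 80%.

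**Figure D3:**
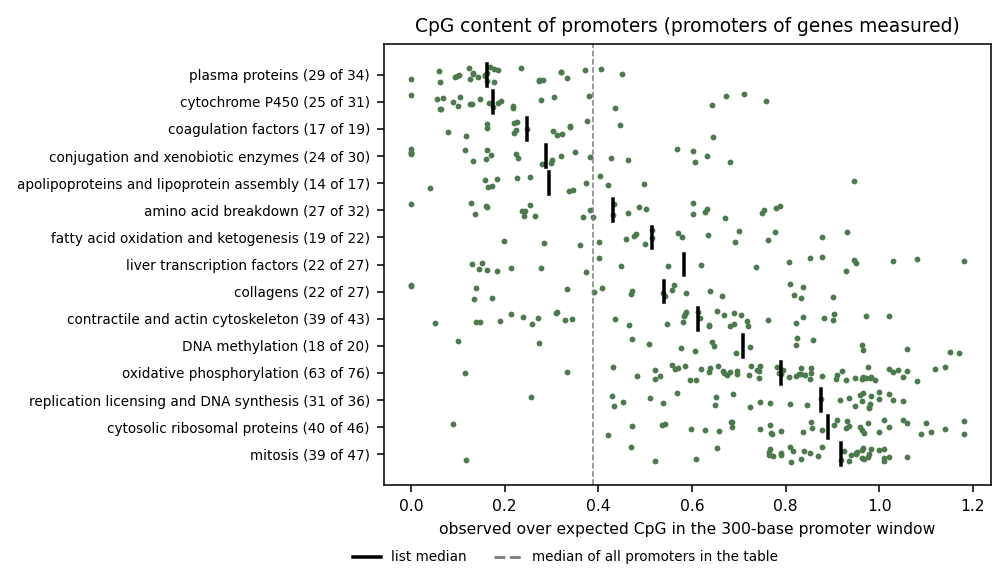
Ratio of observed to expected CpG in the 300-base promoter window of the members of 15 gene lists; each point is a promoter, black bars are list medians, and the dashed line is the median of all promoters in the RefSeq table (0.388). Plasma protein and cytochrome P450 promoters lie lowest (medians 0.162 and 0.174) and those of mitosis genes highest (0.918). The median of the tested genes that had a promoter, not drawn, was 0.674.

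Enzymes of drug and bile acid metabolism were higher in hepatocytes almost throughout. Of 31 cytochrome P450 genes 28 were higher (median log2 change 6.48) and 2 lower. Cyp3a11, which oxidises steroids and drugs, measured 2.85, 3.23 and 2.90 on the MSC arrays and 13.62, 13.68 and 13.61 on the Hepatocyte arrays (10.64, adjusted p = 9.77e-08). Cyp2e1, which oxidises ethanol and small solvents, measured 4.64, 4.34 and 4.48 in MSC and 13.68, 13.70 and 13.75 in hepatocytes (9.23, adjusted p = 9.77e-08). Cyp1b1, a form found outside the liver, was lower (-3.54, adjusted p = 0.0036), with values of 6.59, 9.19 and 8.22 in MSC and 4.14, 4.89 and 4.34 in hepatocytes. Cyp1a1, the form induced by aryl hydrocarbons, was 1.36 higher on the log2 scale, at low values on all arrays, a call lost without MSC replicate 2 or hepatocyte replicate 3.

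Of 30 conjugation and xenobiotic enzymes 28 were higher (median 5.49). Ugt2b5, a glucuronosyltransferase, measured 2.19, 2.01 and 2.11 in MSC and 12.23, 12.24 and 11.99 in hepatocytes, and Gsta3, a glutathione transferase, 3.12, 2.81 and 2.62 in MSC and 11.83, 12.36 and 12.59 in hepatocytes. Gstp1, another glutathione transferase, was bright in both groups, at 12.32, 11.87 and 11.95 in MSC and 13.42, 13.46 and 13.36 in hepatocytes (1.36, adjusted p = 9.04e-04). All 24 genes of bile acid synthesis and transport were higher (median 5.56). Slco1b2, which takes up bile acids and drugs from blood, measured 3.08, 2.96 and 2.85 in MSC and 11.81, 12.80 and 12.22 in hepatocytes, and Slc27a5, which couples bile acids to CoA, 3.61, 3.55 and 3.37 in MSC and 11.53, 12.05 and 12.24 in hepatocytes. Cyp7a1, the rate-limiting enzyme of bile acid synthesis, measured 4.08, 4.04 and 4.15 in MSC and 8.89, 8.68 and 9.12 in hepatocytes (4.80, adjusted p = 1.56e-06). Slco2b1, a transporter not restricted to liver, differed by 2.42 with the probe set used and by 6.72 with a further one.

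Genes of nitrogen metabolism were higher as well. Of 13 genes of the urea cycle and ammonia handling 12 were higher (median 3.50), and of 32 genes of amino acid breakdown 31 (median 5.74). Cps1, Otc and Arg1, which catalyse the entry, the second and the last step of the urea cycle, had log2 changes of 9.41, 9.86 and 9.78. Cps1 measured 4.01, 3.89 and 4.05 in MSC and 13.40, 13.34 and 13.44 in hepatocytes. Ass1, the step after Otc, was also called higher (1.40, adjusted p = 0.00495), but its probe set was low in both groups, at 3.19, 3.24 and 3.10 in MSC and 5.04, 4.05 and 4.64 in hepatocytes. Mat1a, the liver's methionine adenosyltransferase, measured 2.80, 2.80 and 2.45 in MSC and 11.67, 11.53 and 11.85 in hepatocytes, and Hpd, of tyrosine breakdown, 5.19, 4.66 and 4.75 in MSC and 13.51, 13.37 and 13.48 in hepatocytes. Got1, an aminotransferase of all tissues, did not pass the test (0.74, adjusted p = 0.274).

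Glucose-producing genes were higher, and several enzymes differed by isoform. Of 18 genes of gluconeogenesis, glycogen and fructose 16 were higher (median 5.25) and 1 lower. G6pc, which frees glucose from its phosphate, measured 3.16, 3.82 and 3.53 in MSC and 12.05, 10.75 and 11.89 in hepatocytes (8.06, adjusted p = 6.02e-06), and Pck1, which commits carbon to gluconeogenesis, 3.60, 2.94 and 3.30 in MSC and 11.44, 10.05 and 10.81 in hepatocytes (7.49, adjusted p = 8.32e-06). Pck2, the mitochondrial form of that enzyme, was lower (-3.78, adjusted p = 7.51e-05), with values of 10.09, 9.35 and 10.01 in MSC and 5.58, 6.32 and 6.22 in hepatocytes.

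Both forms of an enzyme were measured for 7 pairs, and in 5 of them the liver form was higher and the other form lower. The glucose carriers Slc2a2 and Slc2a1 had log2 changes of 9.63 and -2.23, and the glycogen phosphorylases Pygl and Pygb of 8.02 and -3.02. The glycogen synthases Gys2 and Gys1 had 7.11 and -2.29, the pyruvate kinases Pklr and Pkm 1.42 and -5.72, and the folate enzymes Aldh1l1 and Aldh1l2 6.76 and -5.09. Pkm measured 12.80, 12.30 and 12.37 on the MSC arrays and 5.11, 8.38 and 6.81 on the Hepatocyte arrays. The exceptions were arginase, with both forms higher (Arg2 1.35), and phosphofructokinase, with both forms lower (Pfkl -1.88, Pfkp -2.87). The calls of Arg2 and Pfkl were lost under 8 and 5 of the alternative settings, most of them with a single array left out.

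Genes of fat burning were higher, those of fat synthesis mostly so, and most of those of cholesterol synthesis were not called. Of 22 genes of fatty acid oxidation and ketogenesis 21 were higher (median 2.73). Fabp1, the liver's fatty acid carrier, measured 3.35, 2.80 and 2.84 on the MSC arrays and 13.62, 13.63 and 13.53 on the Hepatocyte arrays (10.59, adjusted p = 1.03e-07), and Acaa1b, a peroxisomal thiolase, 3.76, 3.09 and 3.07 in MSC and 13.16, 13.19 and 13.05 in hepatocytes. Acadl, a mitochondrial dehydrogenase, was bright in both groups (1.19, adjusted p = 0.00178). Fgf21, a hormone of the fasting liver, did not pass the test (0.84, adjusted p = 0.127).

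Of 28 genes of fatty acid synthesis and lipid droplets 18 were higher, 1 lower and 9 not called (median 1.68). Elovl2, which elongates polyunsaturated fatty acids, measured 2.13, 2.04 and 2.11 in MSC and 11.11, 10.68 and 11.16 in hepatocytes, and Dgat2, which forms triglycerides, 6.44, 6.32 and 6.24 in MSC and 11.95, 11.41 and 11.73 in hepatocytes. Fasn and Acly, the main enzymes of new synthesis, overlapped between the groups, at 11.36, 10.43 and 9.82 in MSC and 9.66, 10.36 and 11.37 in hepatocytes for Fasn (adjusted p = 0.933) and 11.53, 11.34 and 11.30 in MSC and 10.83, 11.01 and 12.20 in hepatocytes for Acly (adjusted p = 0.937). Scd2, a desaturase mainly of tissues other than liver, was 144-fold lower (-7.17, adjusted p = 5.58e-05), at 12.54, 12.16 and 12.40 in MSC and 3.92, 5.82 and 5.85 in hepatocytes.

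Among 21 cholesterol synthesis genes 4 were higher and 4 lower, 19% each, against 11.4% higher and 17.9% lower of all genes. The median was -0.10 as deposited and 0.23 after centring on housekeeping genes. Higher were Sc5d, Tm7sf2 and the regulators Insig1 and Insig2, with log2 changes of 2.06, 2.37, 1.73 and 2.10. Lower were Srebf2, the transcription factor of the pathway (-1.64, adjusted p = 5.48e-04), and the enzymes Mvd (-2.33), Mvk (-1.44) and Sqle (-2.94). Sqle measured 6.21, 8.48 and 9.64 on the Hepatocyte arrays, and its call was lost without MSC replicate 2, MSC replicate 3 or hepatocyte replicate 2. That of Mvk was lost without hepatocyte replicate 1 or 2. The list's median was -1.47 within the high spike-in class and -0.04 within the low one.

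Of 16 genes of iron, copper and zinc handling 8 were higher (50%) and 2 lower (12.5%), against 11.4% and 17.9% of all genes. Hamp (hepcidin), the hormone that limits iron uptake, measured 4.69, 4.53 and 4.67 on the MSC arrays and 12.69, 12.87 and 7.34 on the Hepatocyte arrays (6.34, adjusted p = 0.00981). Replicate 3 lay far below the other two Hepatocyte arrays but above all MSC arrays. Slc40a1 (ferroportin), the exporter that hepcidin acts on, measured 4.88, 5.24 and 6.22 in MSC and 11.10, 11.15 and 10.57 in hepatocytes, and Cp (ceruloplasmin), a copper enzyme of plasma, 5.50, 7.89 and 8.32 in MSC and 12.13, 12.63 and 12.55 in hepatocytes. Fth1, the ferritin heavy chain, did not pass the test (-0.26, adjusted p = 0.213). The metallothioneins Mt1 and Mt2, which bind zinc and copper, were called lower (-1.81, adjusted p = 0.00484 and -1.70, adjusted p = 0.0144). A dimmer probe set of Mt1 had 0.46 and was not called, and the call of Mt2 was lost without hepatocyte replicate 3.

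Most retinoid enzymes were higher and the cellular retinoic acid carriers lower. Of 24 genes of the list 14 were higher (58.3%) and 3 lower (12.5%), against 11.4% and 17.9% of all genes. Aldh1a1, which makes retinoic acid, measured 3.42, 3.02 and 3.15 in MSC and 13.22, 13.33 and 13.39 in hepatocytes, and Rdh7, a retinol dehydrogenase, 4.06, 3.57 and 3.82 in MSC and 13.13, 13.04 and 13.05 in hepatocytes. Crabp1 and Crabp2, which carry retinoic acid in the cell, measured 9.15, 7.47 and 7.06 in MSC and 3.62, 3.64 and 3.78 in hepatocytes and 8.56, 9.44 and 9.92 in MSC and 4.13, 3.78 and 3.72 in hepatocytes, with log2 changes of -4.21 and -5.43. Adh7, an alcohol dehydrogenase of stomach, was also called lower (-1.22, adjusted p = 0.0165), a call lost under 7 settings.

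Liver transcription factors were higher in 22 of 27 cases, lower in 0, with a median log2 change of 3.35. Hnf4a, the nuclear receptor at the centre of the network, measured 5.31, 5.10 and 5.24 on the MSC arrays and 11.19, 10.68 and 10.88 on the Hepatocyte arrays (log2 change 5.70 ± 0.19 (SE), adjusted p = 1.02e-06). Hhex and Klf15 had the largest differences (5.95 and 5.80). The pioneer factors Foxa1, Foxa2 and Foxa3 had log2 changes of 4.45, 3.62 and 5.26. Foxa3 measured 3.59, 3.12 and 3.06 in MSC and 9.64, 7.87 and 8.04 in hepatocytes, so replicate 1 was above the other hepatocytes. Onecut1 (HNF6) measured 4.15, 3.92 and 3.86 in MSC and 8.30, 5.67 and 5.51 in hepatocytes, and its call (2.52, adjusted p = 0.0266) was lost under 4 settings, among them without each of the MSC replicates.

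The receptors that sense lipids, bile acids and drugs were among the higher genes. Ppara, which drives fat burning, had 5.25, Nr1h4 (FXR), the bile acid receptor, 4.79, and its target Nr0b2 (SHP) 4.03. Nr1i2 (PXR) and Nr1i3 (CAR), which sense drugs, had 3.83 and 3.8. Nr1h3 (LXR alpha) and Nr5a2 (LRH-1) had 3.35 and 3.15, and Rxra, the shared partner of several of them, 1.8. Creb3l3, Onecut2, Zbtb20, Prox1 and Gata4 were higher by 4.45, 4.24, 2.67, 2.56 and 1.75. Thrb was near the fold limit (1.02, adjusted p = 0.00653) and lost its call under 6 settings.

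The C/EBP factors differed from each other. Cebpa was bright in MSC already, at 8.73, 8.42 and 8.13, and was higher in hepatocytes at 11.07, 11.52 and 10.99 (2.76, adjusted p = 1.16e-04). Cebpb and Cebpd did not pass the test (0.58, adjusted p = 0.101 and -0.63, adjusted p = 0.106). Gata6, Tbx3 and Esr1, also expressed in stroma, did not pass it either (-0.30, -0.08 and 1.42).

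**Figure D4:**
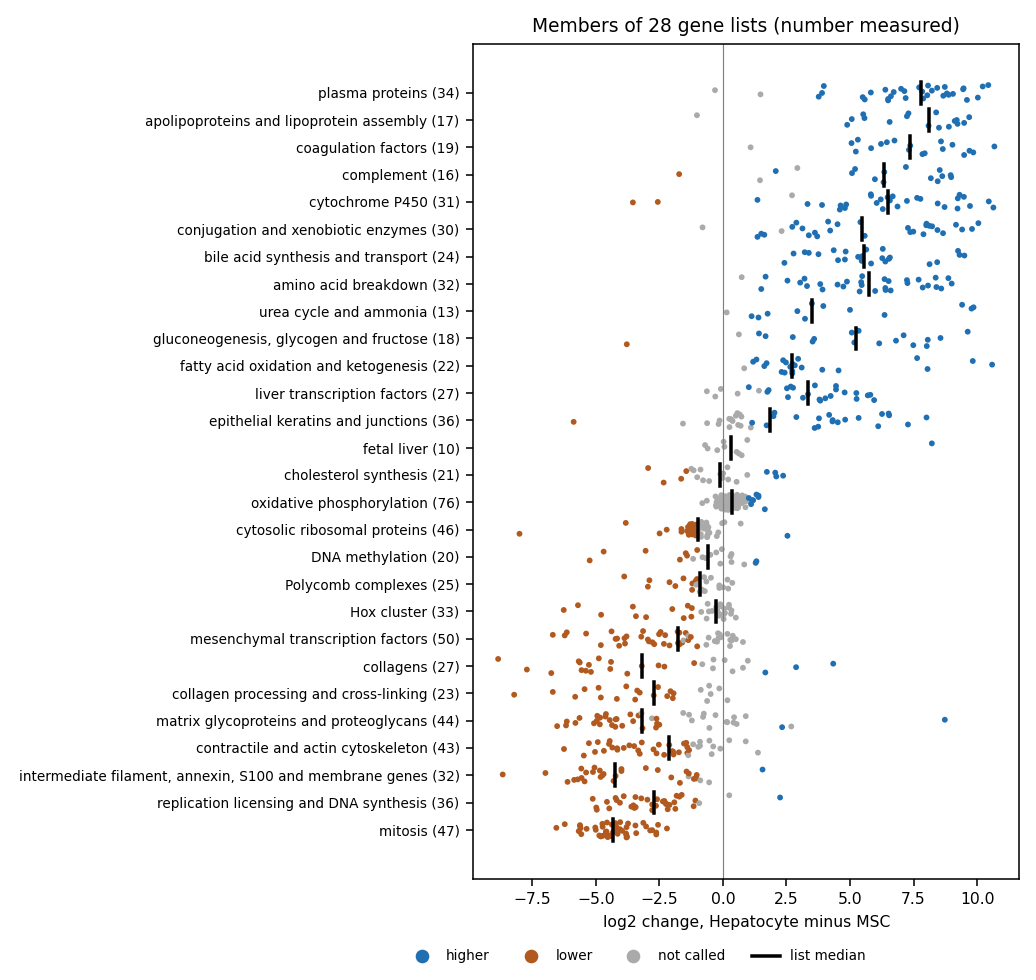
Log2 change (Hepatocyte minus MSC) of every measured member of 28 gene lists; points are genes, coloured by their call, and black bars are list medians. Lists of liver products and enzymes lie right of 0, with medians up to 8.09 for apolipoproteins, and mitosis, cytoskeletal and matrix lists lie left of 0.

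Genes of both zones of the liver lobule were higher. Of 14 periportal genes 13 were higher (median 5.87) and of 15 pericentral genes 11 (median 2.93). Cyp2f2, typical of cells near the portal vein, measured 3.58, 3.81 and 4.30 in MSC and 13.42, 13.06 and 13.14 in hepatocytes, and Cyp1a2, typical of cells near the central vein, 3.47, 3.15 and 3.18 in MSC and 10.96, 10.62 and 11.15 in hepatocytes. Nkd1 and Tbx3, Wnt targets of pericentral cells, did not pass the test (-0.01 and -0.08). The 2 lists were not tested against each other.

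Of 10 fetal liver genes 1 was higher (10%, against 11.4% of all genes). It was Ahsg (fetuin-A), which adult hepatocytes secrete too (8.22, adjusted p = 9.77e-08). Lin28b, an RNA-binding protein of fetal liver, measured 2.07, 1.65 and 1.86 in MSC and 2.16, 1.78 and 1.72 in hepatocytes, near the low end of the scale. Afp (alpha-fetoprotein) had a log2 change of 0.96, adjusted p = 0.0046, under the fold limit. Afp, Cyp7a1, Pck1 and Gins4 were named after their values were seen.

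All 12 measured genes known to be higher in livers of male mice were higher in hepatocytes than in MSC (median 6.50), and 4 of 10 known to be higher in livers of females (median 0.72). Cyp4a12a, of the male set, measured 2.98, 2.92 and 3.11 in MSC and 11.54, 10.91 and 11.52 in hepatocytes, and Hsd3b5 3.93, 3.95 and 3.84 in MSC and 11.41, 10.83 and 9.85 in hepatocytes. Acot3 had the largest change of the female set (3.33, adjusted p = 0.00468), and Sult3a1, at 2.02, 2.02 and 1.92 in MSC and 2.02, 1.85 and 2.31 in hepatocytes, was near the low end of the scale in both groups. Xist, transcribed from the inactive X chromosome, measured 5.29, 5.07 and 5.21 in MSC and 5.14, 5.14 and 5.44 in hepatocytes. The Y-linked genes Eif2s3y and Uty measured 7.01, 8.14 and 8.85 in MSC and 8.39, 9.30 and 9.11 in hepatocytes and 4.50, 6.23 and 6.70 in MSC and 6.33, 7.24 and 7.19 in hepatocytes. None of the 7 sex chromosome genes passed the test with the fold limit, and Eif2s3x had -0.75, adjusted p = 0.00994, under the fold limit. The list's median was -0.07, and 0.26 after centring on housekeeping genes.

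Hepatocytes are epithelial cells, and 20 of 36 epithelial keratin and junction genes were higher, 1 lower (median 1.85). Krt18, the keratin of simple epithelia, measured 3.29, 3.22 and 2.89 on the MSC arrays and 10.19, 11.93 and 11.32 on the Hepatocyte arrays (8.01, adjusted p = 1.21e-05). Dsp and Dsg2, of desmosomes, had log2 changes of 6.54 and 7.28. The gap junction proteins went opposite ways: Gjb1 (connexin 32), of hepatocytes, had 6.52, and Gja1 (connexin 43), of fibroblasts, -5.87. Gja1 measured 3.48, 6.86 and 7.65 on the Hepatocyte arrays, lowest on replicate 1. Cdh1 (E-cadherin) was higher (5.34, adjusted p = 4.09e-06), while Cdh2 (N-cadherin), which hepatocytes also carry, measured 9.23, 10.08 and 9.91 in MSC and 9.91, 10.34 and 9.73 in hepatocytes (adjusted p = 0.521). Both cadherins were named after their values were seen.

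Genes of the extracellular matrix were mostly lower in hepatocytes. Of 27 collagen genes 17 were lower in hepatocytes (63%, against 17.9% of all genes) and 3 higher (11.1%, against 11.4%), with a median of -3.19. Of 23 genes of collagen processing and cross-linking 17 were lower (73.9%) and 0 higher. Of 44 matrix glycoproteins and proteoglycans 26 were lower (59.1%) and 2 higher (4.55%). Col1a2 and Col5a2 had log2 changes of -6.75 and -7.71. Lox, which cross-links collagen, measured 12.10, 12.78 and 12.87 on the MSC arrays and 4.76, 4.48 and 3.88 on the Hepatocyte arrays (-8.21, adjusted p = 2.01e-06). Serpinh1, the collagen chaperone, had -5.44, whereas P4hb and Ppib, folding enzymes of all secretory cells, did not pass the test (0.18 and -0.14).

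The share of collagens higher in hepatocytes (11.1%) was near that of all genes (11.4%). The 3 genes were Col18a1 (4.34, adjusted p = 3.12e-06), a basement membrane collagen that hepatocytes make, Col14a1 (2.88, adjusted p = 0.013) and Col13a1 (1.67). Col14a1 measured 4.01, 4.40 and 4.27 in MSC and 5.39, 7.85 and 8.07 in hepatocytes, lowest on hepatocyte replicate 1, as were the stellate markers. Lum (lumican), a proteoglycan of fibroblasts, was also higher (2.33, adjusted p = 0.0137), at 3.76, 5.58 and 5.45 in MSC and 6.51, 7.45 and 7.83 in hepatocytes. Its call was lost without hepatocyte replicate 3. The other higher gene of that list was Vtn (vitronectin), which is also a plasma protein (8.73, adjusted p = 1.22e-07). Thbs2 and Vcan, a matricellular protein and a large proteoglycan, had -6.52 and -6.17.

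Of 28 matrix proteases and inhibitors 15 were lower and 0 higher (median -2.31). Timp1, an inhibitor of metalloproteinases, measured 11.84, 11.48 and 11.44 in MSC and 4.47, 5.03 and 4.64 in hepatocytes (-6.87, adjusted p = 7.57e-07), and Mmp2 (gelatinase A) had -5.51. Of 58 secreted ligands and modulators of stroma 30 were lower (51.7%) and 4 higher (6.9%), against 17.9% and 11.4% of all genes. Sfrp2 measured 12.11, 12.93 and 12.36 on the MSC arrays and 2.57, 3.17 and 3.06 on the Hepatocyte arrays, and Fgf7 (keratinocyte growth factor) 9.94, 11.30 and 11.05 in MSC and 3.61, 3.56 and 3.40 in hepatocytes. Ptn (pleiotrophin), a heparin-binding growth factor, had -6.81, and Bmp4 -3.08. The 4 higher ones were Igf1 (4.97), Igfbp2 (6.62) and Igfbp4 (4.85), of the growth factor system that the liver supplies, and Bmp2 (3.49). Igf1 measured 5.43, 9.15 and 7.53 in MSC and 12.51, 12.73 and 11.77 in hepatocytes, so its MSC arrays were spread widely.

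Of 43 contractile and actin cytoskeleton genes 31 were lower and 0 higher (median -2.11), and of 32 intermediate filament, annexin, S100 and membrane genes 28 were lower and 1 higher (median -4.26). S100a4, a calcium-binding protein of fibroblasts, measured 12.92, 13.28 and 13.10 on the MSC arrays and 3.62, 5.25 and 4.45 on the Hepatocyte arrays (log2 change -8.66 ± 0.39 (SE), adjusted p = 5.55e-06). Vim (vimentin), the filament of mesenchymal cells, measured 13.59, 13.28 and 13.31 in MSC and 4.81, 10.60 and 7.23 in hepatocytes (log2 change -5.85 ± 1.28 (SE), adjusted p = 0.01). Hepatocyte replicate 2 held more Vim than replicates 1 and 3, and S100a6, Emp1, Acta2 and Cd44 had the same order of arrays. S100a6 measured 3.05, 9.70 and 4.76 on those arrays and Acta2, the actin of smooth muscle, 5.23, 8.66 and 7.51. The filament list as a whole had mean levels of 6.11, 8.68 and 7.38 on the Hepatocyte arrays against 10.99 to 11.11 in MSC, with medians of -6.06 within the high spike-in class and -3.38 within the low one.

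**Figure D5:**
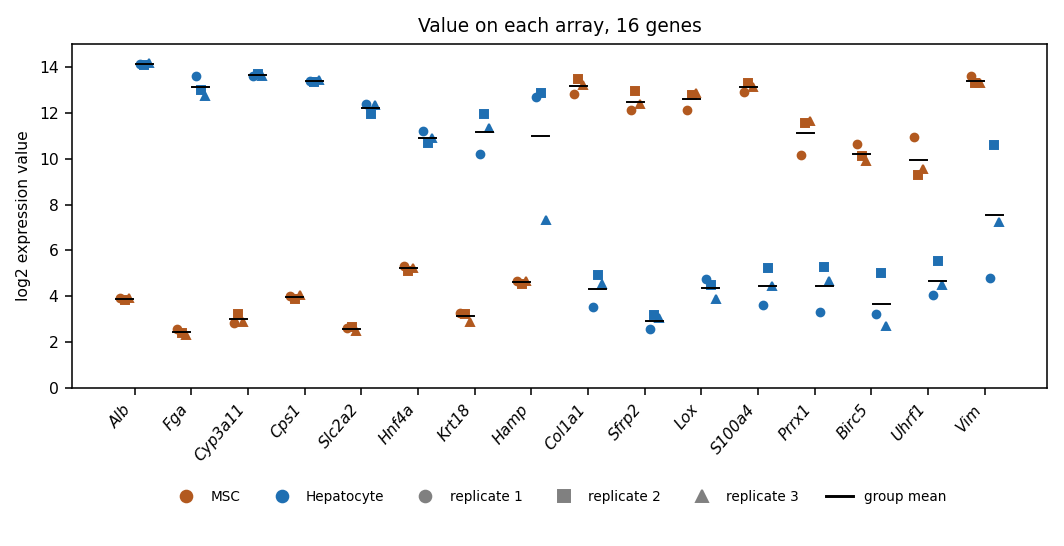
Log2 expression value of 16 genes on each MSC (orange) and Hepatocyte (blue) array; symbols mark the replicate and black bars the group mean. The groups do not overlap for any of these 16 called genes, nor for 52.6% of all genes tested. The hepatocyte values spread most for Hamp (7.34 to 12.87) and Vim (4.81 to 10.60).

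Mesenchymal transcription factors were lower in 33 of 50 cases and higher in 0 (median -1.76). Prrx1, a homeobox factor of limb and stroma, measured 10.17, 11.55 and 11.64 on the MSC arrays and 3.32, 5.29 and 4.69 on the Hepatocyte arrays (log2 change -6.69 ± 0.59 (SE), adjusted p = 1.53e-04). Prrx2, Foxc1 and Twist1 had log2 changes of -6.22, -6.14 and -5.38. Of the 33 measured genes of the Hox clusters, which give cells their place along the body axis, 11 were lower and 0 higher. The share lower was 33.3%, against 17.9% of all genes. Hoxc10 measured 9.79, 9.85 and 9.58 in MSC and 4.40, 3.17 and 2.88 in hepatocytes, and Hoxa9, Hoxa10 and Hoxc8 had -5.70, -4.79 and -3.54. The list's median was -0.26, and 0.07 after centring on housekeeping genes.

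Of 28 surface markers of MSC 10 were lower (35.7%) and 3 higher (10.7%), against 17.9% and 11.4% of all genes. Cdh11, a cadherin of mesenchyme, had the largest difference (-8.46, adjusted p = 5.39e-05), and Cd44, the hyaluronan receptor, -4.37, adjusted p = 0.00758. Cd34, usually held to be absent from cultured human MSC, measured 8.98, 8.15 and 7.72 in MSC and 4.23, 4.28 and 3.58 in hepatocytes (-4.25, adjusted p = 1.21e-04). Alcam (2.19) and Itga1 (2.05) were higher in hepatocytes beside Eng. Of 23 osteogenic and chondrogenic genes 8 were lower (34.8%) and 2 higher (8.7%). Their median was -0.26, and 0.07 after centring on housekeeping genes. Of 16 adipogenic genes 5 were higher (31.2%) and 0 lower. Among these 5 were Klf15 and Cebpa, which also count as liver factors.

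Every one of 47 measured mitosis genes was lower in hepatocytes, with a median log2 change of -4.32 and a smallest difference of -2.20. Of 36 genes of replication licensing and DNA synthesis 33 were lower and 1 higher (median -2.70), and of 24 G1 cyclins and CDK inhibitors 16 were lower and 0 higher (median -1.52). Birc5 (survivin), of the chromosomal passenger complex, measured 10.63, 10.11 and 9.88 on the MSC arrays and 3.25, 5.01 and 2.71 on the Hepatocyte arrays (log2 change -6.55 ± 0.57 (SE), adjusted p = 1.47e-04). Top2a, which untangles DNA, had -6.22, and Mcm5, of the replicative helicase, -5.12 with values of 12.13, 11.06 and 10.61 in MSC and 5.22, 6.87 and 6.35 in hepatocytes. Rrm2, which makes deoxynucleotides, measured 3.88, 6.76 and 8.22 on the Hepatocyte arrays, so that replicates varied. Within the high spike-in class the mitosis median was -4.77 and within the low class -4.08.

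In the replication list Mcm10, Orc1 and Gins4 were not called lower. Mcm10, a replication factor, was called higher (2.25, adjusted p = 8.20e-04), but its other 2 probe sets were not called (log2 changes of 0.47 and -0.74). Orc1 did not pass the test with the probe set used (0.25), while its other probe set had -2.60. Cdk4 measured 11.28, 11.06 and 11.17 in MSC and 7.49, 8.07 and 7.49 in hepatocytes, and Ccnd2 had -3.73. Cdk6 did not pass the test, at 8.11, 8.37 and 7.80 in MSC and 7.91, 8.07 and 7.83 in hepatocytes (adjusted p = 0.575), and Cdkn2a was dim in both groups.

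Promoters of the mitosis list are given for comparison with those of the liver genes: Birc5 had the largest difference of the list, and Ccnb2 and Cdk1, the cyclin and kinase that start mitosis, were chosen after their values and matches were seen. They measured 10.03, 9.58 and 9.45 in MSC and 4.0, 5.36 and 4.71 in hepatocytes for Ccnb2 and 10.88, 10.51 and 10.23 in MSC and 5.90, 6.27 and 5.26 in hepatocytes for Cdk1. Capitals mark the same motifs as above.
Birc5, chr11:117848987-117849236, plus strand: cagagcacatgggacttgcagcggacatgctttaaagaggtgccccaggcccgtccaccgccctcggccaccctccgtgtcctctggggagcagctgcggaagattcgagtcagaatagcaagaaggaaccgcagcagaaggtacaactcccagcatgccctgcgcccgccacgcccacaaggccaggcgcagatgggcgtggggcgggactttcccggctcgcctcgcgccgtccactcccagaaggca
Ccnb2, chr9:70421555-70421804, minus strand: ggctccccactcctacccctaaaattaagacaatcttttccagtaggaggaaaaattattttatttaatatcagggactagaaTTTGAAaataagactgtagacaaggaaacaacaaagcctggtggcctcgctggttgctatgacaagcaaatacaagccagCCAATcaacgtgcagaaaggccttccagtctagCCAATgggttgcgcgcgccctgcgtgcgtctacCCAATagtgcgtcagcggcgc
Cdk1, chr10:69352913-69353162, minus strand: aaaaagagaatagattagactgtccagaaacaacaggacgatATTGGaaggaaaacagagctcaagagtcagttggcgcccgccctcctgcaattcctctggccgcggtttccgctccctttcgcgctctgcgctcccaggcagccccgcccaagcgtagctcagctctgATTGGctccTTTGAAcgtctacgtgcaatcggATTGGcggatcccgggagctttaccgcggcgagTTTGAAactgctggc

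Ccnb2 and Cdk1 each held 3 CCAAT boxes in the stretch, at 87, 54 and 21 bases before the start in Ccnb2 and at 208, 80 and 48 in Cdk1. TTTGAA stood at 71 and 15 bases before the start in Cdk1. In Ccnb2 it stood at 167 bases before the start and, beyond the printed stretch, at 5 bases after it. The Birc5 window held none of the 7 marked motifs. In the 300-base window CCAAT was found in 76.9% of 39 mitosis promoters against 37.9% of all promoters, and TTTGAA in 71.8% against 18.1%. In the 150 bases before the start alone TTTGAA was found in 33.3% of the mitosis promoters. TTTGGCGC, bound by E2F factors, was found in 16.1% of 31 replication promoters against 0.537% of all. In the 300-base window of the 14449 tested genes that had a promoter, CCAAT was found in 38.2%, TTTGAA in 13.4% and TTTGGCGC in 0.851%. The CpG ratio was 0.764 for Birc5, 0.95 for Ccnb2 and 0.965 for Cdk1.

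The study's title concerns DNA methyltransferases, and of 20 genes that write, read or remove DNA methylation 7 were lower in hepatocytes and 2 higher. The shares were 35% lower and 10% higher, against 17.9% and 11.4% of all genes. The maintenance enzymes stood out. Dnmt1, which copies methylation after replication, measured 10.03, 8.98 and 8.72 on the MSC arrays and 5.87, 6.62 and 6.11 on the Hepatocyte arrays (log2 change -3.04 ± 0.37 (SE), adjusted p = 7.32e-04), and all 3 of its probe sets were lower. Uhrf1, which brings Dnmt1 to new DNA, measured 10.93, 9.29 and 9.54 in MSC and 4.06, 5.52 and 4.48 in hepatocytes (-5.24, adjusted p = 2.90e-04), and Hells, a chromatin remodeller needed for methylation, 8.87, 9.25 and 8.85 in MSC and 3.08, 5.76 and 4.07 in hepatocytes (-4.69, adjusted p = 9.83e-04). These 3 genes are also more active in dividing cells, and the cell cycle lists were lower in the same samples. How much of their difference goes with division was not tested.

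The enzymes that set new methylation and those that remove it did not pass the test. Dnmt3a measured 5.30, 6.51 and 6.33 in MSC and 6.10, 6.60 and 6.46 in hepatocytes (adjusted p = 0.477), and Dnmt3b 5.84, 5.62 and 5.46 in MSC and 5.44, 5.30 and 5.40 in hepatocytes (adjusted p = 0.259). Dnmt3l, their cofactor in germ cells, was dim in both groups. The oxidases Tet1, Tet2 and Tet3 had log2 changes of 0.30, 0.84 and -0.10, with adjusted p = 0.36, adjusted p = 0.28 and adjusted p = 0.712. Gadd45b, linked to demethylation and stress, was lower (-1.69, adjusted p = 0.00676), while Gadd45a and Gadd45g varied among arrays (-1.17 and -0.68). Among readers Mbd3, Mbd4 and Uhrf2 were called lower (-1.46, -1.41 and -1.01) and Mbd1 and Zbtb33 higher (1.29 and 1.32), and each of these 5 calls was lost under 3 to 9 settings. Mbd2, Zbtb4 and Zbtb38 were not called (-0.49, -0.80 and -0.04).

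Of 25 genes of the Polycomb complexes, which silence genes through histone marks, 10 were lower and 0 higher (median -0.91), and 6 were lower after centring on housekeeping genes. Ezh2, the methyltransferase of dividing cells, measured 9.07, 8.77 and 8.90 in MSC and 5.57, 6.75 and 5.74 in hepatocytes (-2.89, adjusted p = 4.35e-04), while Ezh1, its paralog, had 0.01, adjusted p = 0.987. Cbx6, Phc1 and Pcgf2 had -3.88, -2.95 and -2.10. Of 23 imprinted genes Slc38a4, an amino acid carrier of liver, was higher (7.80, adjusted p = 3.56e-07), and Ndn, Grb10 and Sgce were lower (-5.11, -4.58 and -2.55). The call of Sgce was lost without MSC replicate 2, MSC replicate 3 or hepatocyte replicate 2. The shares called were 4.35% higher and 13% lower, against 11.4% and 17.9% of all genes. The list's median was -0.12, and 0.21 after centring on housekeeping genes.

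Of 46 cytosolic ribosomal protein genes 23 were lower and 1 higher, with a median of -0.98, and 9 were lower after centring on housekeeping genes. Most differences were small, but Rpl39l, a variant of Rpl39, measured 11.87, 11.48 and 11.47 on the MSC arrays and 3.55, 3.38 and 3.89 on the Hepatocyte arrays (-8.0, adjusted p = 3.44e-07). Rps25 had -3.82, and Rps4l was the higher gene (2.54). Ribosomal protein genes have many near-identical copies in the genome, so their probe sets may share signal. Of 76 genes of oxidative phosphorylation 8 were higher (10.5%, against 11.4% of all genes) and 0 lower (median 0.37), and 20 were higher after centring on housekeeping genes. Sdha and Sdhb, of complex II, had 1.40 and 1.32. The mitochondrial ribosome (4 higher, 4 lower of 73, median -0.11 and, centred on housekeeping genes, 0.22) and the proteasome (2 higher, 0 lower of 39) had called shares below those of all genes.

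Of 17 clock genes 7 were higher and 0 lower. Dbp and Hlf, output factors of the clock, measured 6.29, 7.24 and 7.32 in MSC and 9.67, 10.30 and 10.47 in hepatocytes and 3.82, 4.82 and 4.84 in MSC and 8.17, 7.64 and 7.21 in hepatocytes, and Nr1d2 had 1.76, a call lost without hepatocyte replicate 2 or 3, while Clock and Npas2 were not called (-0.04 and -0.12). Of 26 immediate early and stress genes 11 were lower (42.3%) and 2 higher (7.69%), against 17.9% and 11.4% of all genes. Lower were the AP-1 subunits Fosl1 (-3.45) and Fosl2 (-4.14), and the amino acid response genes Asns (-3.59) and Nupr1 (-3.8). Higher were Gclc (2.88) and Gclm (1.3), the subunits of the enzyme that begins glutathione synthesis.

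Of 25 MHC class I and interferon genes 7 were higher and 0 lower. B2m, the light chain of MHC class I, measured 11.85, 12.14 and 12.47 in MSC and 13.15, 13.36 and 13.15 in hepatocytes (1.06, adjusted p = 0.00526), a call lost under 6 settings, among them without MSC replicate 1 or hepatocyte replicate 2. Bst2, an antiviral membrane protein, had 2.75. H2-D1 was called higher (2.65, adjusted p = 1.91e-04), but its 9 probe sets, which cover a family of similar genes, ranged from -1.47 to 2.76, with 4 called higher and 0 lower. These genes are also expressed by the Kupffer and endothelial cells whose markers were higher in the same samples. The part of those cells in the differences was not tested.

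Among changed genes the choice of probe set mattered little for direction where signals were bright. Of 5687 further probe sets of 3039 changed genes, 85.9% had the same direction as the one used, 47.6% passed the same test and 16 (0.281%) were called in the opposite direction. Among the 3537 whose brighter group mean lay above the median, 95.1% had the same direction and 70% passed. Genes that were not called lie outside this check, and some of them had further probe sets that were called. Hsd17b13 had 0.41 with the probe set used and 9.12 with another. Slc1a2 had 0.15, and 4.94 and 3.71 with further ones, while Orc1 had 0.25 and -2.60. List counts rest on the probe set used and can miss such genes. Of the 13 housekeeping genes 4 were called lower (30.8%, against 17.9% of all genes) and 3 higher (23.1%, against 11.4%). Eef1a1 (-0.19) and Hprt (-0.25) were not called, and Actb had -0.67, adjusted p = 0.0207, under the fold limit. A dimmer probe set of Actb was called higher (2.30, adjusted p = 0.00902 over probe sets).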

How the data were processed

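The deposited table holds log2 expression values of 45101 probe sets, which the authors made by RMA, per the submitters' processing notes (version not given). No source used here gives the base of the logarithm, and values between 1.32 and 14.15 led to base 2. Of the probe sets, 34945 carried 1 gene symbol, 932 several and 9160 none, and 64 are controls. The gene IDs of 34741 matched RefSeq (GRCm38.p6) and 0 symbols differed.

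The 6 arrays entered a linear model (limma 3.58.1, R 4.3.3, moderated two-sided tests, 4 residual and 2.96 prior degrees of freedom), with Benjamini-Hochberg adjustment over 18193 genes, and the procedure was tested on simulated data. The members and the 59 gene lists were chosen with earlier results of these data known. Of 1346 names in the lists given by name, 1229 matched a gene. Named were the 15 largest changes in each direction without overlap, per list the 4 largest changes in each direction and the 2 smallest, all members of 4 lists, isoform pairs and cell markers (426 genes), and those said to be chosen later. The 250 bases before and 50 after the start were searched on both strands. Promoters matched by gene ID or symbol for 14449 genes. The number of arrays limits the precision. Alternatives were other probe set rules, scalings, filters, blocks, weights, all 15 arrays and leaving out each array.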

Additional observations from a re-analysis of the deposited data

How the results depend on the processing

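The count of 5316 changed genes stayed within 1.5 times of its value under all 21 settings, from 4043 (test against a fold of 1.5) to 7074 (no fold limit). Leaving out each array in turn gave 4856 to 5371 changed genes, 1878 to 2137 higher and 2978 to 3353 lower. Deviations from the group means had correlations of 0.25, 0.23 and 0.069 between same-numbered arrays, and of -0.26 to 0.21 between differently numbered ones. The labels do not say whether the replicate numbers pair the samples. With the number as a replicate block 5467 genes changed, 2155 higher and 3312 lower, and 2 further named genes passed the test. Averaging all probe sets of a gene kept 82.9% of the changed genes, the lowest share of any setting apart from the test against a fold of 1.5 (76.1%).

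Of 304 named genes that changed, 257 kept the call under every setting that measured them, and 47 lost it under 1 or more. For lists with at least 5 called members in a direction, counts in the direction with more calls were followed. Against a fold of 1.5 the lower members went from 7 to 4 in DNA methylation and from 10 to 6 in Polycomb complexes, and the higher ones from 7 to 4 in MHC class I and interferon response. Centred on housekeeping genes Polycomb went to 6, cytosolic ribosomal proteins from 23 to 9 and oxidative phosphorylation from 8 to 20. Of calls in smaller numbers, Mbd1 and Zbtb33, the 2 higher DNA methylation genes, were both lost against a fold of 1.5, without MSC replicate 1, without hepatocyte replicate 3 and in the low spike-in class, and Mrpl3, Mrpl54 and Mrps26 with the mean of all probe sets. With no fold limit 37 ribosomal genes were lower and 21 of oxidative phosphorylation higher. Medians near 0 changed sign under a scaling in 6 lists (cholesterol synthesis, sex chromosome, osteogenic and chondrogenic, imprinted, Hox and mitochondrial ribosomal genes).

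Signs turned for 6 named genes, and the cause was not tested beyond the other probe sets involved. Gp1bb went to 0.27 with the brightest probe set over the 6 arrays. Without x_at and s_at probe sets H2-D1 went to -0.19, Masp1 to 5.83 and Mt1 to 0.46. With the mean of all probe sets Orc1 went to -1.18 and Tcf21 to 1.39. Over bright probe sets alone, 95.1% in place of 85.9% of further probe sets had the same direction, and in the 150 bases before the start the CHR element was found in 33.3% in place of 71.8% of mitosis promoters. With the 500 largest changes in each direction the motif shares were computed but are not used as a result. Under 80% of these genes had a promoter (77.6% of the rises, 75.8% of the falls). Of those with a promoter, 19.6% of the rises and 63.3% of the falls had a CpG ratio over 0.6.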

Other observations

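Alas2, the heme synthesis enzyme of red blood cells, measured 4.63, 4.38 and 4.74 on the MSC arrays and 10.76, 9.81 and 9.78 on the Hepatocyte arrays (5.53, adjusted p = 1.22e-05). It was the called member of an erythroid list of 6 genes. The globin gene Hba-a1 and the band 3 gene Slc4a1 of the same list were dim in both groups, at 3.34, 3.26 and 3.52 in MSC and 3.50, 3.70 and 3.44 in hepatocytes and 4.2, 3.92 and 3.91 in MSC and 3.92, 3.8 and 3.88 in hepatocytes. Jchain, the joining chain of antibodies, was higher too (2.61, adjusted p = 0.00896), at 3.75, 3.32 and 3.13 in MSC and 5.66, 5.04 and 7.35 in hepatocytes, while Pax5 of the B cell list was not called (0.21). Ighm was not called with the probe set used (-0.11), but 2 of its other probe sets were higher in hepatocytes (3.48, adjusted p = 0.00585 and 2.89, adjusted p = 0.0256 over probe sets).

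Of 9160 probe sets without a gene symbol 314 (3.43%) were higher and 317 (3.46%) lower in a fit over probe sets, where probe sets with 1 symbol had 9.57% and 15.5%.

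The Y-linked genes Uty and Eif2s3y were lowest on MSC replicate 1, at 4.50, 6.23 and 6.70 and 7.01, 8.14 and 8.85 on the MSC arrays. Kdm5d, a further Y-linked gene, measured 6.0, 7.02 and 7.09 in MSC and 5.81, 6.74 and 6.65 in hepatocytes, also lowest on replicate 1 of each group.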
